A study of Mus musculus with 11 samples.

Results

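The enzymes that detoxify peroxides, superoxide and reactive electrophiles were followed in the pancreas and the epididymal adipose tissue of mice with obesity-related alcohol-induced acute pancreatitis (OA-AP). The genes were taken by name from the count table of each tissue: the cytosolic glutathione transferases (Gsta, Gstm, Gstp, Gstt, Gsto, Gstz and Gstk), the microsomal transferases (Mgst), the glutathione peroxidases (Gpx), the peroxiredoxins (Prdx), the superoxide dismutases (Sod), the thioredoxins, the reductases Txnrd2 and Txnrd3, and the glutaredoxins (Glrx), without names marked as pseudogenes by "-ps". This gave 52 of the 54532 genes in the pancreas table and 54 of the 46078 in the adipose table, with 51 in both and 55 in either. The adipose table differs because it holds second entries for Gstp1, Gstp2 and Txnrd2, with no count in any library, and lists Gstp3 under the older symbol BC021614.

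RNA was sequenced in 11 libraries, 2 of control and 3 of OA-AP pancreas and 3 of control and 3 of OA-AP adipose tissue. All mice were wild-type males aged 16 weeks at sampling, of the strain C57BL/6 by the labels and C57BL/6J by the study's methods. OA-AP mice were kept on high-fat food over 12 weeks, after which they received 2 intraperitoneal injections of ethanol at 2 g/kg, 1 h apart, and control mice were lean mice on normal chow that were injected with saline. Diet, ethanol and pancreatitis therefore differ together between the groups and cannot be told apart. In bulk tissue, fewer cells of a type and less RNA per cell cannot be told apart either. Depth was 14188832 to 17238919 counts per pancreas library and 20825177 to 27928097 per adipose library. The labels do not state that libraries of a group came from separate mice, so p-values measure the spread between these libraries.

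Glutathione is the main small thiol of the cell. Glutathione transferases join it to reactive electrophiles such as lipid aldehydes, glutathione peroxidases use it to reduce peroxides to water or alcohols, and glutaredoxins use it to release proteins from mixed disulfides. Superoxide dismutases make hydrogen peroxide from superoxide, and peroxiredoxins, most of which are recharged by thioredoxin and its reductases, remove that peroxide. The transcription factor Nrf2 raises many of these genes through antioxidant response elements in their promoters.

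Both tissues carried the markers of their label. Acinar secretory genes, 26 in all, made up 72.7% and 74.5% of control pancreas counts and 56.6% to 59.1% of OA-AP pancreas counts. Of the 26 genes, 19 were lower in OA-AP. On the scaling used for single genes below, the median log2 fold change of the 26 was -1.22, beside 0.04 over all genes. An adipocyte list of 8 genes took 3.87% to 3.88% of the counts in control adipose tissue and 3.16% to 3.35% in OA-AP, with every gene of it detected in every adipose library. In control adipose replicate 2 the acinar genes took 0.963% of the counts, against at most 0.0019% in the other 5 adipose libraries. In adipose tissue 6 of the 7 tested genes of a neutrophil list of 8 were higher in OA-AP. The summed level of all 8 rose from between 17.4 and 36.1 CPM (counts scaled to a common library size) to between 187 and 210.3 CPM. In the pancreas the neutrophil sum was 1.80 and 2.79 CPM in controls and 14.3, 4.63 and 106 CPM in OA-AP, and of its 7 tested genes 1 had an unadjusted p under 0.05 and none an adjusted one. Fibroblast markers were lower in OA-AP adipose tissue in 5 of 6 genes, with a summed level of 3266 to 4142 CPM in controls and 1926 to 2381 CPM in OA-AP. Lymphocyte markers were lower there in 5 of 5 tested genes. The summed level of all 6 listed lymphocyte genes was 7.49 to 40.8 CPM in controls and 2.07 to 3.43 CPM in OA-AP. Of 5 erythroid markers, 2 were higher there. The part of these cell types in the changes below was not tested.

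Several of the families lie side by side in the genome, with coordinates given on GRCm38. The 7 mu transferases occupy 149 kb of chromosome 3 (chr3:107895821-108044894), and the 3 pi transferases 24.0 kb of chromosome 19 (chr19:4035407-4059446). The 4 theta transferases occupy 63.3 kb of chromosome 10 (chr10:75774115-75837424). Of the 52 genes, 46 have a promoter entry in RefSeq (GRCm38.p6). The core letters of the antioxidant response element, TGACNNNGC with N for any base, were searched on both strands from 250 bases before to 50 bases after each start. They occurred in 6 of the 46 genes, or 13.0%, against 14.0% of the 27025 genes with an entry, and these were Gsta3, Gstm5, Gstm7, Mgst1, Prdx1 and Sod1. A match of letters does not show binding. The 250 bases before the start are shown for 3 genes called in the pancreas, with the match in capitals. Gstm5 (chr3:107895604-107895853, plus strand) was lower in the OA-AP pancreas and its match begins 42 bases before the start. Mgst1 (chr6:138140277-138140526, plus strand) was called higher there, but the call was lost in 4 of 5 runs with a library left out. Its match, on the opposite strand, begins 56 bases before the start, and its other promoter entry has no match. Gstp3 (chr19:4059448-4059697, minus strand) rose by the largest factor in the pancreas of those tested among the 52 genes and has no match in this window.
Gstm5: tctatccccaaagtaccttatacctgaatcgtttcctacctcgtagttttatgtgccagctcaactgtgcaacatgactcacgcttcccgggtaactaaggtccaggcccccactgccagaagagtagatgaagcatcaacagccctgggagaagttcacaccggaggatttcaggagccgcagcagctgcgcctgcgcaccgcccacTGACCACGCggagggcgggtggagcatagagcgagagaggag
Mgst1: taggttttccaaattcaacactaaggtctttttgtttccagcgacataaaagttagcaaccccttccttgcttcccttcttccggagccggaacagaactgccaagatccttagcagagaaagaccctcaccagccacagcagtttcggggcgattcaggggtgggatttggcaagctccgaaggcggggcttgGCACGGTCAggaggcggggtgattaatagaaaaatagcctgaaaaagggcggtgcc
Gstp3: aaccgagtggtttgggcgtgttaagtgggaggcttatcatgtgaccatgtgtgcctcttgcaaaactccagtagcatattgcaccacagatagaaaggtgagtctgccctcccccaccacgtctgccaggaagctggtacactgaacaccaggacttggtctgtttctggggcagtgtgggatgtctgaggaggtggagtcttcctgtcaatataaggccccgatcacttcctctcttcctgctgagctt

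In control pancreas the pi transferase Gstp1 was the most abundant of these transcripts, with 179.5 and 207 CPM per kb of gene length. The endoplasmic reticulum peroxiredoxin Prdx4 came next with 87.2 and 91.8 CPM per kb, followed by Gstm1 with 45.6 and 52.4 CPM per kb and Gstm2 with 34.4 and 41.3 CPM per kb. The 2 libraries of Gpx1, at 34.7 and 36.3 CPM per kb, lay within the range of Gstm2. In the OA-AP pancreas Gstp1 was still first, at 79.0 to 91.8 CPM per kb, but thioredoxin Txn1 (37.8 to 45.5 CPM per kb) and Gpx4 (30.5 to 36.2 CPM per kb) now stood above or level with Prdx4 (26.9 to 33.6 CPM per kb). Adipose tissue had a different order. Its most abundant transcript in controls was Gpx3, the secreted plasma peroxidase, with 695 to 1243 CPM per kb, ahead of Mgst1 with 427 to 572 CPM per kb. Gpx1 with 373 to 474 CPM per kb overlapped Mgst1. In OA-AP adipose tissue Gpx1 reached 633 to 713 CPM per kb and overlapped Gpx3, at 465 to 737 CPM per kb.

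**Figure D1:**
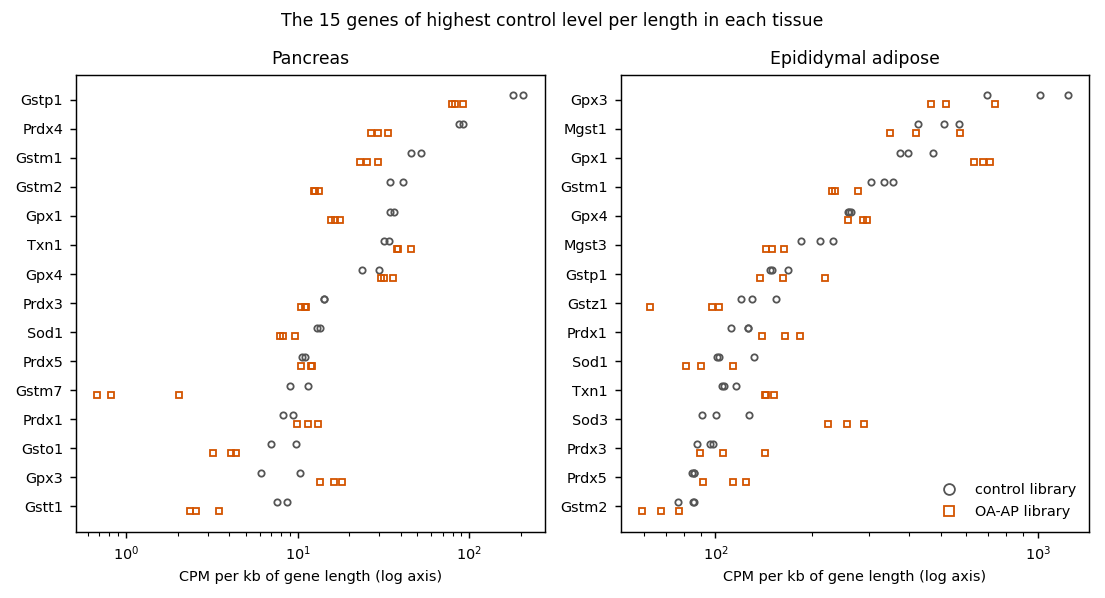
Level of the 15 genes with the highest control mean per length in each tissue, as CPM per kb of gene length on a log axis, with circles for control and squares for OA-AP libraries. Gstp1 leads in the pancreas in both groups, from 79.0 to 207 CPM per kb, and Gpx3 leads in control adipose tissue, at 695 to 1243 CPM per kb.

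In the OA-AP pancreas most of the genes that changed were lower, and the mu transferases stood in front. Of the 39 genes that passed the filter on low counts, 3 were higher and 15 were lower in OA-AP, where a call needed an adjusted p under 0.05 and a fold change that reached 1.5 in edgeR's quasi-likelihood test. These are 7.69% and 38.5% of the 39, beside 16.2% of all 12884 tested genes called higher and 13.5% called lower. The median log2 fold change of the 39 genes was -0.45, beside 0.04 for all genes. The balance depends on how libraries are scaled. Scaled by library totals alone, which moves the median of all genes up by 0.71, 10 genes were higher and 8 lower, and 92.0% of the calls over all genes were then higher against 54.5% with TMM scaling. The other 21 tested genes did not pass, 6 with positive and 15 with negative log2 fold changes.

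The mu transferases conjugate glutathione to a wide range of electrophiles. All 6 tested members were lower in the OA-AP pancreas, with a median log2 fold change of -1.94, and each kept its negative sign under library totals alone. Gstm6 had 2.23 and 2.09 CPM in the control libraries and 0.0525, 0.172 and 0.0523 CPM in the OA-AP libraries (log2 fold change -4.46, SE 0.61, adjusted p = 0.00138). These are 47 counts in controls against 5 in OA-AP, a scaled ratio of 24.1 with a 95% exact interval of 9.64 to 77.7 that covers counting error only. Gstm7 had 18.4 and 14.5 CPM in controls and 3.25, 1.09 and 1.31 CPM in OA-AP, 8.65-fold lower (log2 fold change -3.11, SE 0.42, adjusted p = 0.00179). For both genes the highest OA-AP library was far below the lowest control. Gstm4 had 1.89 and 3.89 CPM in controls and 0.787, 0.744 and 0.471 CPM in OA-AP, 4.27-fold lower (log2 fold change -2.09, SE 0.47, adjusted p = 0.0112). Its controls differed by more than a factor of 2, and without control replicate 2 the log2 fold change was -1.49 with an adjusted p of 0.15. Gstm5 had 10.1 and 8.28 CPM in controls and 2.41, 3.03 and 2.56 CPM in OA-AP, 3.45-fold lower (log2 fold change -1.79, SE 0.23, adjusted p = 0.00115). The abundant members Gstm2 and Gstm1 moved by less in relative terms. Gstm2 had 57.8 and 69.4 CPM in controls and 22.5, 20.9 and 21.2 CPM in OA-AP, 2.95-fold lower (log2 fold change -1.56, SE 0.13, adjusted p = 0.000238). Gstm1 had 77.2 and 67.2 CPM in controls and 43.4, 37.6 and 34.2 CPM in OA-AP, 1.88-fold lower (log2 fold change -0.91, SE 0.15, adjusted p = 0.00287). Under library totals alone Gstm1 was no longer called, with a log2 fold change of -0.20. The groups did not overlap for any of the 6. Groups that do not overlap, here and below, describe the libraries and add no support to a call. The share of all genes without overlap was not computed. Gstm3 was not tested, with no count in controls and 0.0523 to 0.229 CPM in OA-AP. Gstm4, Gstm5 and Gstm7 share no stretch of 100 bases with another annotated transcript, Gstm6 shares 1.10% of such stretches and Gstm1 5.86%.

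**Figure D2:**
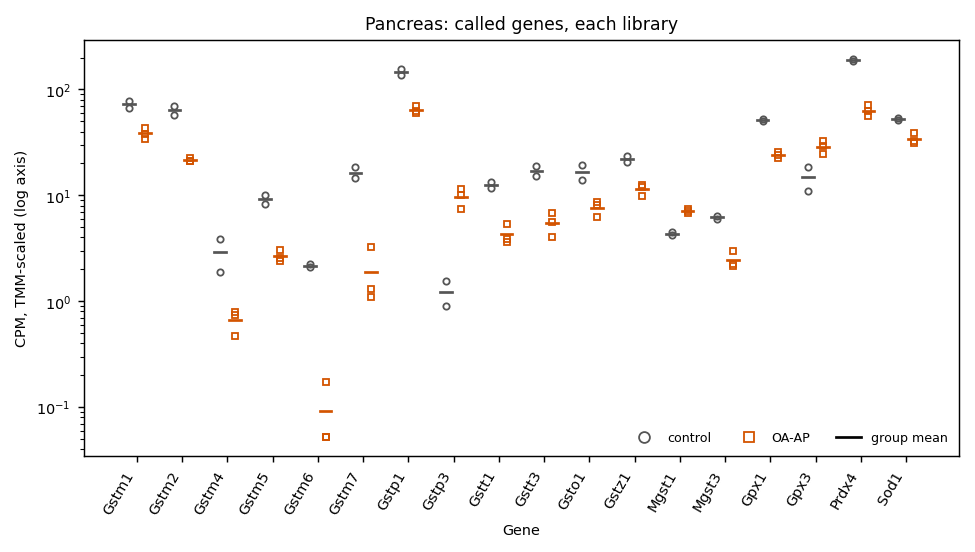
CPM of each pancreas library on a log axis for the 18 genes called in the pancreas, with circles for control, squares for OA-AP and a bar for the group mean. Gstm6 falls from 2.09 and 2.23 CPM to at most 0.172 CPM, and Gstp3 rises from at most 1.54 CPM to at least 7.43 CPM.

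The pi transferases went in opposite directions within 24.0 kb. Gstp1, which can also attach glutathione to proteins, had 157 and 136 CPM in controls and 69.5, 59.8 and 62.6 CPM in OA-AP, 2.29-fold lower (log2 fold change -1.19, SE 0.13, adjusted p = 0.000626). Gstp3 had 1.54 and 0.897 CPM in controls and 11.4, 10.1 and 7.43 CPM in OA-AP, 7.74-fold higher (log2 fold change 2.95, SE 0.34, adjusted p = 0.000677), the largest rise among these genes in the pancreas. Neither gene's groups overlapped. Gstp1 lost its call under library totals alone, at a log2 fold change of -0.48. Gstp2 had 0.172 and 5.18 CPM in controls and 0.210, 0.286 and 1.20 CPM in OA-AP, with groups that overlapped and an adjusted p of 0.216. Gstp1 and Gstp2 share 25.1% and 41.6% of their stretches of 100 bases with each other, so counts of the pair are uncertain, while Gstp3 shares none.

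Theta transferases act on small halogenated compounds and hydroperoxides. Gstt1 had 13.3 and 11.7 CPM in control pancreas and 3.88, 3.60 and 5.33 CPM in OA-AP, 2.92-fold lower (log2 fold change -1.54, SE 0.22, adjusted p = 0.00182). Gstt3 had 15.1 and 18.9 CPM in controls and 5.62, 6.75 and 4.08 CPM in OA-AP, 3.10-fold lower (log2 fold change -1.63, SE 0.23, adjusted p = 0.00172). Both fell without overlap of the groups. Gstt2, the third tested member, had 25.7 and 25.9 CPM in controls and 20.1, 27.0 and 18.0 CPM in OA-AP and did not pass (log2 fold change -0.25, SE 0.19, adjusted p = 0.331). Gstt3 shares 10.8% of its stretches with the gene model Gm20441. The omega transferase Gsto1, which reduces mixed disulfides and oxidised vitamin C, had 13.8 and 19.3 CPM in controls and 8.61, 6.29 and 8.05 CPM in OA-AP (log2 fold change -1.11, SE 0.21, adjusted p = 0.00578). The zeta transferase Gstz1, an enzyme of tyrosine breakdown, had 20.7 and 23.4 CPM in controls and 12.7, 12.1 and 9.83 CPM in OA-AP (log2 fold change -0.94, SE 0.16, adjusted p = 0.00394). Both were lower, but without control replicate 2 their adjusted p was 0.0833 and 0.0578, and under library totals alone their log2 fold changes were -0.39 and -0.21 and were not called. The kappa transferase Gstk1 and the alpha transferase Gsta3 did not pass, with log2 fold changes of -0.46 and -0.38.

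The microsomal transferases, membrane enzymes that also have peroxidase activity, were split in the pancreas. Mgst1 had 4.20 and 4.49 CPM in controls and 7.14, 7.38 and 6.75 CPM in OA-AP, 1.63-fold higher (log2 fold change 0.71, SE 0.21, adjusted p = 0.032). Mgst3 had 6.44 and 5.98 CPM in controls and 2.26, 2.17 and 2.98 CPM in OA-AP, 2.51-fold lower (log2 fold change -1.33, SE 0.26, adjusted p = 0.00693). Neither overlapped between groups, but both calls rest on single libraries. The adjusted p of Mgst1 was 0.0677 to 0.161 without control replicate 1 or 2 or OA-AP replicate 1 or 2, and 0.0701 in DESeq2. That of Mgst3 was 0.0717 without control replicate 1 and 0.058 without control replicate 2, and its log2 fold change under library totals alone was -0.63 and not called.

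Among the peroxide-removing enzymes the largest decrease in the pancreas was that of Prdx4, which clears peroxide made during disulfide formation in secretory proteins. Prdx4 had 184 and 193 CPM in controls and 61.9, 70.8 and 56.6 CPM in OA-AP, 2.99-fold lower (log2 fold change -1.58, SE 0.14, adjusted p = 0.000238). Its call was kept in each alternative run. The other 5 tested peroxiredoxins did not pass, with log2 fold changes from -0.41 in Prdx6 to 0.38 in Prdx1. Prdx6 had an adjusted p of 0.0384 but a fold change under 1.5. Gpx1, the main cytosolic glutathione peroxidase, had 49.9 and 52.3 CPM in controls and 23.8, 22.7 and 25.6 CPM in OA-AP, 2.13-fold lower (log2 fold change -1.09, SE 0.13, adjusted p = 0.000723). Gpx3 had 18.7 and 11.1 CPM in controls and 29.5, 32.9 and 24.4 CPM in OA-AP, 1.93-fold higher (log2 fold change 0.95, SE 0.24, adjusted p = 0.0196). The 2 peroxidases thus changed in opposite directions under TMM scaling. Under library totals alone Gpx1 had a log2 fold change of -0.38 and was not called, and for Gpx3 the adjusted p was 0.135 without control replicate 2 and 0.0647 without OA-AP replicate 1. Gpx4, which protects membranes from lipid peroxidation, and Gpx8 of the endoplasmic reticulum did not pass, with log2 fold changes of 0.29 and -0.64. Cytosolic Sod1 had 51.5 and 53.5 CPM in controls and 31.2, 32.8 and 38.4 CPM in OA-AP (log2 fold change -0.62, SE 0.14, adjusted p = 0.0113). Sod1 was lower by little more than the threshold. Its log2 fold change was 0.08 under library totals alone, and its adjusted p was 0.0776, 0.101 and 0.0649 without control replicate 1, control replicate 2 and OA-AP replicate 1. Mitochondrial Sod2 and extracellular Sod3 did not pass in the pancreas, and neither did the 4 glutaredoxins, of which 3 had an unadjusted p under 0.05, or the 4 thioredoxins and reductases tested. Of these, Glrx (0.94) and Glrx5 (0.73) had the highest log2 fold changes, with adjusted p of 0.0743 and 0.0515. The 13 genes not tested in the pancreas were Gpx2, Gpx5, Gpx6, Gpx7, Gsta1, Gsta2, Gsta4, Gstm3, Gsto2, Gstt4, Mgst2, Prdx2-rs3 and Prdx6b, none above 1.03 CPM in any pancreas library.

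**Figure D3:**
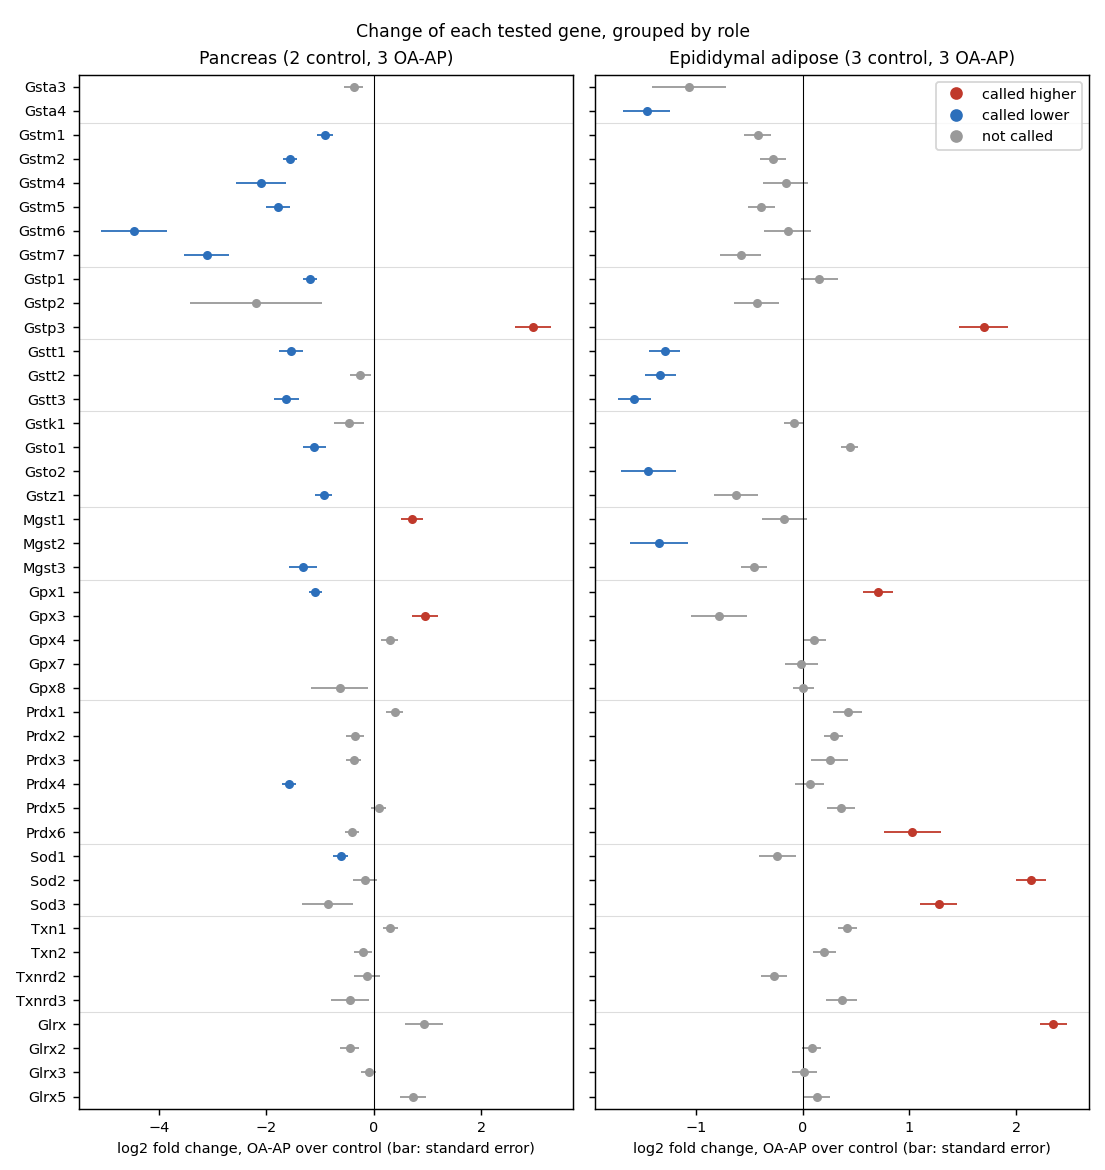
Log2 fold change of OA-AP over control with its standard error for each tested gene, in the pancreas (left) and in epididymal adipose tissue (right), grouped by role and coloured by call. The 2 horizontal scales differ. All 6 mu transferases lie between -4.46 and -0.91 in the pancreas, and Glrx, Sod2 and Sod3 lie above 1 in adipose tissue. Gstp3 in adipose tissue is the entry listed there as BC021614.

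In OA-AP adipose tissue Sod2, Sod3, Glrx, Prdx6 and Gpx1 rose, and the theta transferases, Gsta4, Gsto2 and Mgst2 fell. Of 42 tested genes, 5 were higher (11.9%) and 6 lower (14.3%), beside 12.1% and 13.0% of all 15839 tested genes. The shares are near those over all genes. The median log2 fold change was -0.05, beside -0.01 over all genes. Under library totals alone, which moves the median of all genes by -0.15, 4 genes were higher and 11 lower. Without control replicate 2, the library with the high acinar share, 4 were higher and 6 lower. Of the 31 genes that did not pass, 15 had positive and 16 negative log2 fold changes.

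Glrx, the cytosolic glutaredoxin, had 7.53, 6.53 and 7.22 CPM in control adipose tissue and 37.2, 31.4 and 39.8 CPM in OA-AP, 5.09-fold higher (log2 fold change 2.35, SE 0.13, adjusted p = 0.000179). Sod2, which removes superoxide in mitochondria, had 152, 129 and 114 CPM in controls and 613, 566 and 561 CPM in OA-AP, 4.40-fold higher (log2 fold change 2.14, SE 0.14, adjusted p = 0.000253). Sod3, the secreted dismutase, had 339.7, 474 and 376 CPM in controls and 837, 954 and 1083 CPM in OA-AP, 2.42-fold higher (log2 fold change 1.27, SE 0.17, adjusted p = 0.00218). For these 3 genes each OA-AP library was above each control by more than the spread within either group, and the call was kept in each alternative run. The neutrophil list rose in the same libraries, and its part in these 3 increases was not tested. Sod2 shares 12.8% of its stretches of 100 bases with other transcripts. Sod1 did not pass (log2 fold change -0.24, SE 0.17, adjusted p = 0.305). Prdx6, which reduces phospholipid hydroperoxides and also has phospholipase activity, had 384, 318 and 253 CPM in controls and 547, 911 and 489 CPM in OA-AP, 2.04-fold higher (log2 fold change 1.03, SE 0.27, adjusted p = 0.0234). OA-AP replicate 2 was far above the other two, and the adjusted p was 0.0652 without control replicate 2 and 0.0846 without control replicate 3. Gpx1 had 570.0, 683 and 537 CPM in controls and 1028, 978 and 913 CPM in OA-AP, 1.63-fold higher (log2 fold change 0.70, SE 0.14, adjusted p = 0.00799). Its fold change fell under 1.5 with library totals alone, at a log2 fold change of 0.55.

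All 3 tested theta transferases were lower in OA-AP adipose tissue. Gstt3 had 19.2, 14.2 and 17.5 CPM in controls and 5.29, 6.20 and 5.56 CPM in OA-AP, 2.99-fold lower (log2 fold change -1.58, SE 0.15, adjusted p = 0.000767). Gstt2 had 52.3, 56.7 and 63.6 CPM in controls and 25.1, 18.6 and 24.9 CPM in OA-AP, 2.52-fold lower (log2 fold change -1.33, SE 0.14, adjusted p = 0.00106). Gstt1 had 60.6, 67.9 and 59.6 CPM in controls and 22.5, 31.4 and 22.9 CPM in OA-AP, 2.45-fold lower (log2 fold change -1.29, SE 0.15, adjusted p = 0.00128). In each, the highest OA-AP library was below the lowest control, and the calls were kept in each alternative run. Gstt1 and Gstt3 were thus lower in both tissues, and the difference of the log2 fold changes between tissues did not pass, at 0.25 (SE 0.27, adjusted p = 0.578) and 0.05 (SE 0.30, adjusted p = 0.959).

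The alpha transferase Gsta4, which conjugates the lipid aldehyde 4-hydroxynonenal, had 29.7, 20 and 26.1 CPM in control adipose tissue and 10.9, 10 and 6.72 CPM in OA-AP, 2.75-fold lower (log2 fold change -1.46, SE 0.22, adjusted p = 0.00326). Gsto2 had 2.40, 2.33 and 2.38 CPM in controls and 0.985, 1.01 and 0.606 CPM in OA-AP, 2.72-fold lower (log2 fold change -1.45, SE 0.26, adjusted p = 0.00573). Mgst2, which can also make leukotriene C4, had 25.8, 21.6 and 35.1 CPM in controls and 14.9, 9.33 and 8.28 CPM in OA-AP, 2.54-fold lower (log2 fold change -1.34, SE 0.27, adjusted p = 0.00964). In all 3 the groups did not overlap. Fibroblast and lymphocyte markers were lower in the same libraries, and their part in the decreases of these 3 genes and of the theta transferases was not tested. In the pancreas, where the 3 genes were too low to be tested, Gsta4 had 0.515 and 0.199 CPM in controls and 0.315, 0.515 and 0.418 CPM in OA-AP, Gsto2 had 0.0858 and 0 CPM against 0, 0.172 and 0.105 CPM, and Mgst2 was at 0 in 4 libraries and at 0.0525 CPM in OA-AP replicate 1. Gsta3, the other tested alpha transferase, had 215, 126 and 128 CPM in controls and 65.6, 111 and 47.8 CPM in OA-AP and missed the threshold (log2 fold change -1.06, SE 0.35, adjusted p = 0.053). Gpx3, the most abundant of these transcripts per length in control adipose tissue, had 1261, 1849 and 2253 CPM in controls and 1335, 844 and 944 CPM in OA-AP, with overlapping groups (log2 fold change -0.78, SE 0.26, adjusted p = 0.0522). Gstz1 had 784, 611 and 663 CPM in controls and 521, 495 and 319 CPM in OA-AP and also missed it (log2 fold change -0.62, SE 0.21, adjusted p = 0.0501). The mu transferases, lower together in the pancreas, did not pass in adipose tissue, where 3 of 6 had an unadjusted p under 0.05. Their log2 fold changes ran from -0.58 in Gstm7 to -0.14 in Gstm6, and Gstm1, Gstm5 and Gstm7 had adjusted p of 0.0349, 0.0488 and 0.0462 with fold changes under 1.5. Gsto1 (0.44), Txn1 (0.42), Prdx1 (0.42) and Prdx2 (0.29) also had an adjusted p under 0.05 with fold changes under 1.5, as did Mgst3 (-0.46).

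There were 12 genes lower in the pancreas without a call in adipose tissue. Of these, Gstm1, Gstm5, Gstm7, Gstz1 and Mgst3 were still lower in every OA-AP adipose library than in any control. The share of all genes with groups apart in this way was not computed. Gstm1 had 489.9, 448 and 526 CPM in control and 345, 407 and 339.6 CPM in OA-AP adipose tissue, and Gstm5 had 28.1, 25.4 and 32.9 CPM against 21.5, 24.3 and 20.3 CPM. Gstm2 had 143, 129 and 144 CPM in controls and 114, 129 and 99.2 CPM in OA-AP, and Gstm4 had 25.2, 26.4 and 25.7 CPM against 16.4, 31.0 and 21.8 CPM. Both overlapped between groups. Gsto1 had 71.0, 67.8 and 71.9 CPM in controls and 96.3, 91.9 and 98.2 CPM in OA-AP, and Mgst3 had 255, 232 and 202 CPM against 157, 165 and 179 CPM. In both the groups were apart, with Gsto1 higher and Mgst3 lower in every OA-AP library. Gstp1 had 128, 114 and 112 CPM in controls and 166, 104 and 123 CPM in OA-AP, and Sod1 had 403, 407 and 522 CPM against 449, 323 and 359 CPM, and for both the groups overlapped.

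The entry listed as BC021614, which has the identifier of Gstp3 in the pancreas table, had 0.480, 0.466 and 0.511 CPM in control adipose tissue and 1.5, 1.59 and 1.67 CPM in OA-AP (log2 fold change 1.69, SE 0.23, adjusted p = 0.00234). This entry falls outside the counts above because of its symbol. Its levels were low, with 11 to 15 counts per control library and 29 to 33 per OA-AP library, and all OA-AP libraries were above all controls. The remaining adipose genes did not pass: Glrx2, Glrx3, Glrx5, Gpx4, Gpx7, Gpx8, Gstk1, Gstm2, Gstm4, Gstp1, Gstp2, Mgst1, Prdx3, Prdx4, Prdx5, Txn2, Txnrd2 and Txnrd3 had log2 fold changes from -0.43 in Gstp2 to 0.36 in Txnrd3. The 12 entries not tested were Gpx2, Gpx5, Gpx6, Gsta1, Gsta2, Gstm3, Gstt4, Prdx2-rs3, Prdx6b and the 3 second entries, none above 0.851 CPM in any adipose library.

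**Figure D4:**
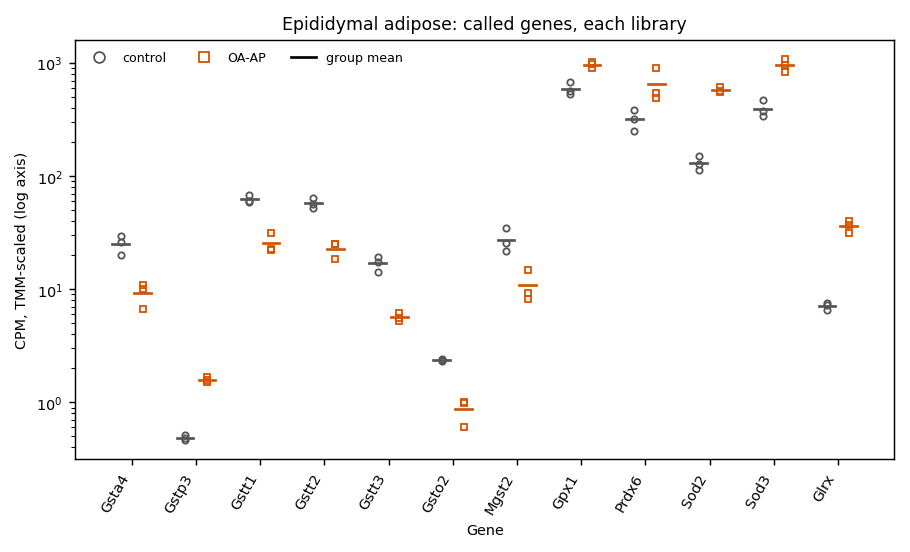
CPM of each adipose library on a log axis for the 11 genes called in adipose tissue and for Gstp3, listed there as BC021614, with circles for control, squares for OA-AP and a bar for the group mean. Sod2 rises from at most 152 CPM to at least 561 CPM, and Gstt3 falls from at least 14.2 CPM to at most 6.20 CPM.

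Whether the 2 tissues differed in their change was tested with a tissue by condition term over all 11 libraries. Of 44 genes tested, the change was higher in adipose tissue than in the pancreas for 15 and lower for 4, or 34.1% and 9.09%, beside 10.4% and 10.2% of all 17046 tested genes. The median difference of the 44 genes was 0.44 on the log2 scale, beside -0.06 over all genes. Under library totals alone, which moves the median of all genes by -0.82, 7 were higher and 12 lower. Of the 15, Glrx, Gstm2, Gstm4, Gstm5, Gstp1, Mgst3, Prdx2 and Prdx6 were then no longer called higher. Of the 6 mu transferases 5 were among the 15, led by Gstm6 with a difference of 4.40 (SE 0.57, adjusted p = 0.000344) and Gstm7 with 2.53 (SE 0.47, adjusted p = 0.00309). Gstm1 was the exception, at 0.48 (SE 0.20, adjusted p = 0.112). The adipose values behind these differences were 3.14, 3.56 and 3.88 CPM of Gstm6 in controls and 2.49, 3.32 and 3.79 CPM in OA-AP, and those of Gstm7 were 7.27, 5.25 and 5.41 CPM against 4.09, 3.70 and 4.19 CPM. Gstm6 and Gstm7 thus fell in the pancreas by far more than their adipose levels moved.

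Sod2 and Sod3 rose in adipose tissue and did not pass in the pancreas, with differences of 2.29 (SE 0.26, adjusted p = 0.000155) and 2.14 (SE 0.38, adjusted p = 0.00231). In the pancreas Sod2 had 21.8 and 25.7 CPM in controls and 19.4, 16.8 and 27.1 CPM in OA-AP, and Sod3 had 1.72 and 1.30 CPM against 1.05, 0.915 and 0.523 CPM. Each OA-AP pancreas library was below both controls for Sod3, so its difference holds a negative value in the pancreas (log2 fold change -0.86, SE 0.47, adjusted p = 0.191) as well as the rise in adipose tissue. Gpx1 was the only one of the 38 genes tested in both tissues to be called in opposite directions, lower in the pancreas and higher in adipose tissue, with a difference of 1.78 (SE 0.18, adjusted p = 9.39e-05). Prdx4 differed by 1.64 (SE 0.20, adjusted p = 0.00023), with 20.6, 27.4 and 20.4 CPM in control and 24.8, 24.0 and 22.8 CPM in OA-AP adipose tissue. Prdx6 and Glrx rose in adipose tissue, and their differences were 1.43 (SE 0.34, adjusted p = 0.0109) and 1.39 (SE 0.32, adjusted p = 0.00898). In the pancreas Prdx6 had 35.3 and 37.8 CPM in controls and 27.3, 27.1 and 28.3 CPM in OA-AP, and Glrx had 1.72 and 1.60 CPM against 2.89, 2.57 and 4.08 CPM. Prdx2, not called in either tissue, differed by 0.63 (SE 0.17, adjusted p = 0.0193). It had 21.3 and 25.8 CPM in control and 17.6, 20.7 and 16.9 CPM in OA-AP pancreas, and 99.2, 91.1 and 96.4 CPM against 111, 120.0 and 119 CPM in adipose tissue, so its levels lay lower in 3 of 3 OA-AP pancreas libraries and higher in 3 of 3 OA-AP adipose libraries, but the difference was -0.22 under library totals alone and lost its call without any 1 of 7 libraries. Of the other 14 genes with a higher change in adipose tissue, Gstm4 lost its call without pancreas control replicate 2 (adjusted p = 0.126), and Mgst3 and Glrx lost theirs without pancreas control replicate 1 (0.0767 and 0.0573).

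The 4 genes whose change was lower in adipose tissue were Gpx3, Gstp3, Gstt2 and Mgst1. Gpx3 differed by -1.74 (SE 0.40, adjusted p = 0.00924), and Gstt2, lower only in adipose tissue by its calls, by -1.09 (SE 0.24, adjusted p = 0.00837). Gstp3 rose in both tissues, and by more in the pancreas, with a difference of -1.28 (SE 0.41, adjusted p = 0.0444). Mgst1 differed by -0.89 (SE 0.28, adjusted p = 0.0432), with 859, 1034 and 1151 CPM in control and 1155, 701 and 846 CPM in OA-AP adipose tissue. Gstt2 kept its call whichever library was left out. Gstp3 lost its call without any 1 of 9 libraries, Mgst1 without any 1 of 7, and Gpx3 without pancreas control replicate 2 (adjusted p = 0.0613). Leaving out pancreas control replicate 2 left only Gstt2 of the 4. Only Gpx3 and Gstt2 were left without pancreas OA-AP replicate 1 or 2, adipose control replicate 2 or 3 or adipose OA-AP replicate 3. A replicate block, which joined same-numbered pancreas and adipose libraries of a condition, ended the calls of Gstt2, Gstp3 and Mgst1 (adjusted p = 0.0569, 0.171 and 0.101) and, among the positive differences, of Mgst3 and Prdx2 (adjusted p = 0.0504 and 0.0823). The sources used here do not state whether same-numbered libraries of the 2 tissues came from the same mouse. Of the 38 genes tested in both tissues, 12 were lower in the pancreas without a call in adipose tissue, 2 were lower in both and 16 were called in neither. The same counts over all genes were not computed. A call in 1 tissue alone is not a difference between tissues. Of the 12, Gstm1, Gstz1 and Sod1 did not pass the tissue by condition test.

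**Figure D5:**
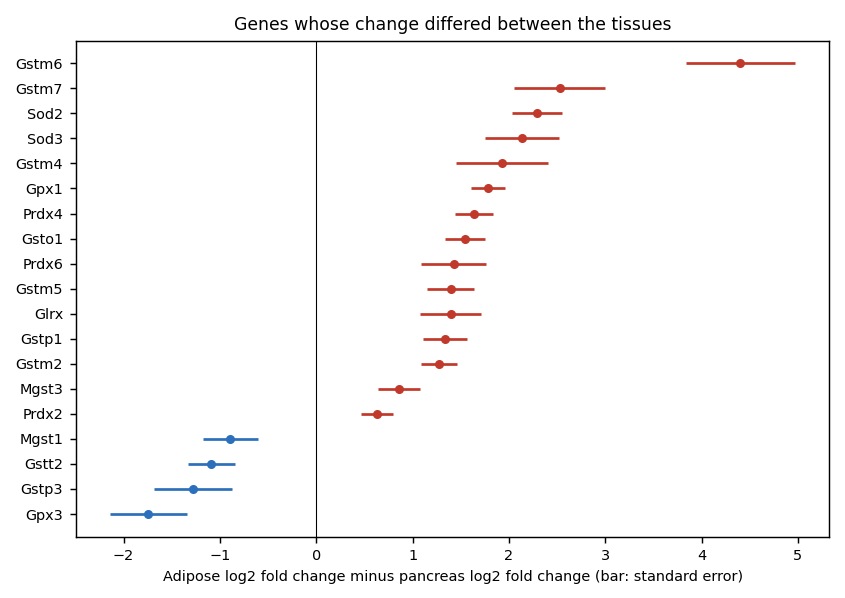
Log2 fold change in adipose tissue minus that in the pancreas, with its standard error, for the 19 genes that passed the tissue by condition test. The 15 positive values run from 0.63 (Prdx2) to 4.40 (Gstm6) and the 4 negative ones from -1.74 (Gpx3) to -0.89 (Mgst1).

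The supply of glutathione and of reducing power was read from lists that hold none of the genes above. For genes of these lists, calls were not checked under other settings or with a library left out. Of 18 genes of glutathione synthesis, uptake, recycling and breakdown, 2 (11.1%) were higher and 4 (22.2%) lower in the pancreas, beside 16.2% and 13.5% of all genes, and in adipose tissue 4 of 16 tested (25%) were higher and 4 lower, beside 12.1% and 13.0% of all genes. Gsr, the reductase that regenerates glutathione, was higher in both tissues, with log2 fold changes of 0.91 (SE 0.25, adjusted p = 0.0234) in the pancreas and 1.88 (SE 0.28, adjusted p = 0.00341) in adipose tissue. Cth and Cbs, which make cysteine from homocysteine, were lower in both under TMM scaling. Cth fell from 17.2 and 18.2 CPM to between 0.892 and 1.36 CPM in the pancreas, with a log2 fold change of -4.00 (SE 0.23), and from 4.49 to 10.2 CPM to between 1.11 and 2.55 CPM in adipose tissue, with -2.01 (SE 0.39). Cbs had smaller log2 fold changes, of -0.74 (SE 0.15) in the pancreas, about the size of the shift between scalings, and -0.61 (SE 0.13) in adipose tissue. Oplah, which recycles 5-oxoproline to glutamate, was higher in the pancreas (2.06, SE 0.28) and lower in adipose tissue (-0.76, SE 0.22). In adipose tissue Ggct, a glutathione cycle enzyme, was also higher, with a log2 fold change of 1.74 (SE 0.17). The synthesis genes Gclc, Gclm and Gss had no call in either tissue.

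Of the 8 genes of NADPH supply, 1 of 7 tested was lower in the pancreas (14.3%), near the share over all genes given above. In adipose tissue 1 of the 8 was higher (12.5%) and 2 lower (25%), beside 12.1% and 13.0% of all genes. Idh2, the mitochondrial enzyme, was the one that fell in the pancreas, from 88.2 and 90.3 CPM to between 32.9 and 37.4 CPM (log2 fold change -1.36, SE 0.12). Of 13 partners of these enzymes, 4 (30.8%) were higher and 2 (15.4%) lower in the pancreas and 2 (15.4%) higher and 1 (7.69%) lower in adipose tissue, beside the shares over all genes given above. Srxn1, which restores overoxidised peroxiredoxins, was higher in both tissues, with log2 fold changes of 1.86 (SE 0.57, adjusted p = 0.0485) in the pancreas and 1.36 (SE 0.26, adjusted p = 0.00862) in adipose tissue. Txnip, which binds and inhibits thioredoxin, rose in the pancreas from 214 and 287 CPM to between 1041 and 1139.6 CPM (2.13, SE 0.18), and so did Sesn1, from 36.2 and 47.8 CPM to between 119 and 155 CPM (1.74, SE 0.19). Txnrd1, the cytosolic thioredoxin reductase, rose in adipose tissue from between 70.8 and 80.1 CPM to between 152 and 221 CPM (1.28, SE 0.15).

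In the list of Nrf2 and 3 further genes of its pathway, Hmox1, which degrades heme, was higher in both tissues. Its level went from 1.20 and 1.5 CPM to between 4.62 and 20.3 CPM in the pancreas (log2 fold change 3.12, SE 0.76) and from between 38.1 and 49.5 CPM to between 227 and 363 CPM in adipose tissue (2.65, SE 0.21). Nfe2l2, the gene of Nrf2, was the other one of 3 tested genes called higher in the pancreas. With Hmox1 this is 66.7% of the 3 tested there, beside 16.2% of all genes, and 1 gene of the list was not tested. In adipose tissue Hmox1 was the only one of 4 called (25%), beside 12.1% of all genes. Keap1 and Nqo1, the rest of the list, had no call in either tissue. By the tissue by condition test the change of Nfe2l2 was lower in adipose tissue than in the pancreas, 1 of 4 genes (25%) beside 10.2% of all genes. Of 9 genes for making selenoproteins, the class to which Gpx1 and Gpx4 belong, 2 (22.2%) were higher and 2 lower in the pancreas and 1 (11.1%) was higher in adipose tissue, beside the 16.2%, 13.5% and 12.1% of all genes. Sephs2, which makes the selenium donor, was higher in the pancreas, at 42.9 and 51.1 CPM in controls and between 94.5 and 108 CPM in OA-AP (1.10, SE 0.14).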

How the data were processed

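Whole-number counts per gene, deposited by the authors without normalization, were analysed for 5 pancreas and 6 adipose libraries. Per the labels and the study's methods, reads were trimmed with Trim Galore (0.6.6) and fastp (0.20.1), mapped to GRCm38 with STAR and counted with featureCounts (2.0.1). The annotation release and the strand setting are not given in the sources used here.

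Genes with low counts were removed with filterByExpr and libraries scaled with TMM factors. Each tissue was tested with edgeR's quasi-likelihood test (4.0.16, robust fit, two-sided) on all genes, and p-values were adjusted over all genes by Benjamini-Hochberg. A gene was called at an adjusted p under 0.05 with a fold change that reached 1.5. Standard errors are the log2 fold change over the root of its F statistic. A tissue by condition term was tested over the genes in both tables. The fits were tested on simulated data. CPM were computed from the TMM-scaled totals on tested genes, and levels per length use the gene length in the authors' pancreas table. Levels of the 2 tissues were scaled separately and are not compared. Alternatives were DESeq2 (1.42.0), its size factors, library totals alone, TMM without acinar genes, other filters and thresholds, a non-robust fit, a replicate block, and each library left out. Replicates differed by more than counting noise (chi-square per degree of freedom of at least 6.91).

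The genes and lists were chosen with earlier results of these data known. Genes called in at least 1 test are given in every library. From the pathway lists, genes called in both tissues and 6 more with the smallest p-value are named. Nfe2l2, Keap1, Nqo1, Gclc, Gclm and Gss were named after the values were seen. Promoters are from RefSeq (GRCm38.p6). Stretches of 100 bases shared between transcripts were counted in GENCODE M21, in place of a planned comparison of proteins, and 48 of 52 genes have the same coordinates there.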

Additional observations from a re-analysis of the deposited data

Results flagged for a closer look

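The change between control and OA-AP differed between adipose tissue and pancreas, by edgeR's test of the tissue by condition term over all 11 libraries, for 19 of the 44 genes tested. Differences are given as the log2 fold change in adipose tissue minus that in the pancreas, and no explanation was tested. Of the mu transferases, Gstm6 differed by 4.40 (SE 0.57, adjusted p = 0.000344), Gstm7 by 2.53 (SE 0.47, adjusted p = 0.00309), Gstm4 by 1.93 (SE 0.48, adjusted p = 0.0143), Gstm5 by 1.39 (SE 0.24, adjusted p = 0.00202) and Gstm2 by 1.27 (SE 0.18, adjusted p = 0.000667). Other transferases with a higher change in adipose tissue were Gsto1 with 1.54 (SE 0.21, adjusted p = 0.000449), Gstp1 with 1.34 (SE 0.23, adjusted p = 0.00199) and Mgst3 with 0.86 (SE 0.22, adjusted p = 0.0153). Among dismutases the difference was 2.29 (SE 0.26, adjusted p = 0.000155) for Sod2 and 2.14 (SE 0.38, adjusted p = 0.00231) for Sod3. Among enzymes of peroxides and disulfides it was 1.78 (SE 0.18, adjusted p = 9.39e-05) for Gpx1, 1.64 (SE 0.20, adjusted p = 0.00023) for Prdx4, 1.43 (SE 0.34, adjusted p = 0.0109) for Prdx6, 1.39 (SE 0.32, adjusted p = 0.00898) for Glrx and 0.63 (SE 0.17, adjusted p = 0.0193) for Prdx2. Negative differences were those of Gpx3 with -1.74 (SE 0.40, adjusted p = 0.00924), Gstp3 with -1.28 (SE 0.41, adjusted p = 0.0444), Gstt2 with -1.09 (SE 0.24, adjusted p = 0.00837) and Mgst1 with -0.89 (SE 0.28, adjusted p = 0.0432). Groups held 2 or 3 libraries, too few to test single libraries as outliers.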

How the results depend on the processing

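The counts of called genes were recomputed under 10 other settings of scaling, test, filter, threshold and block, and with each library left out. Under library totals alone the pancreas counts were 10 higher and 8 lower, the adipose count of lower genes was 11, and the tissue by condition counts were 7 higher and 12 lower. Sod1 in the pancreas reversed to a log2 fold change of 0.084 and the difference of Prdx2 to -0.22, since this scaling moves the median of all genes. With a fold threshold of 2 the pancreas count of higher genes was 1, and with the adjusted p alone 9 genes were higher and 10 lower in adipose tissue. DESeq2 called 2 higher and 15 lower in the pancreas and 5 higher and 9 lower in adipose tissue. Leaving out 1 library gave 1 to 3 higher and 10 to 16 lower genes in the pancreas, 4 to 5 higher and 6 to 8 lower in adipose tissue, and 13 to 17 higher and 1 to 4 lower for tissue by condition. A lone control was then assumed to vary like the other group.

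Deviations of same-numbered control and OA-AP libraries had correlations from 0.00 to -0.04 in the pancreas and from -0.16 to 0.06 in adipose tissue. The deviations of the pancreas controls mirror each other, so this check cannot show pairs there. Correlations of same-numbered pancreas and adipose libraries of a condition ran from -0.05 to 0.13. Of these, OA-AP replicates 2 and 3 correlated best with their own number (0.09 and 0.13). The numbers were not taken as pairs in the main fit, and these correlations do not settle whether they are. With the replicate block the counts were 3 higher and 16 lower in the pancreas, 5 and 6 in adipose tissue, and 13 and 1 for tissue by condition, where of the 4 negative differences only Gpx3 was still called. In adipose tissue not every library correlated best with its own number.

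With 2 control libraries in the pancreas, the calls of Gpx3, Gstm4, Gsto1, Gstz1, Mgst1, Mgst3 and Sod1 depended on at least 1 library. Depth limits Gstm6, Gstp3 in adipose tissue and the untested genes.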
